A study of Oryctolagus cuniculus with 6 samples.

Results

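The T-cell and cytokine genes described here are IL12B, IL13, LTB, CCL1, CXCL10, LAG3 and TRAT1, 7 of the 421 mRNA transcripts in the authors' selected table, taken by gene symbol with 1 transcript each. They were measured by RNA sequencing of hypertrophic ear scars from female New Zealand White rabbits, 3 in each arm, collected at day 21. Full-thickness wounds, 6 per ear, received saline in the control arm. The other arm was given ADSC-Exos (100 µg in 2 ml), which are exosomes, vesicles secreted by adipose-derived stem cells. GEO's series description limits application to the first 3 days, and the sample labels give 21 days for both arms. Rabbits were randomised and each replicate is 1 animal, but the sources used here do not say which wounds entered a library or at which ages the animals were used. No genetic modification is labelled in either arm.

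T cells recognise antigen through a receptor complex whose assembly and signalling depend on small membrane adaptors, and checkpoint receptors restrain them once they are activated. Cytokines direct the response: the interleukin subunit encoded by IL12B belongs to type 1 and type 17 immunity, while IL13 is the type 2 cytokine most often linked to fibrosis in skin and other organs. Chemokines recruit leukocytes, CXCL10 in response to interferon and CCL1 through the receptor CCR8. In a healing wound these signals come from lymphocytes, myeloid cells and stromal cells alike. The assay was made on whole scar tissue, so fewer cells of a type and less RNA per cell cannot be told apart.

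Of the 7 genes, IL12B, IL13, LTB, TRAT1 and CXCL10 were lower in ADSC-Exos than in control scars, and CCL1 and LAG3 were higher. The lower 5 had log2 differences (ADSC-Exos minus control) between -2.99 and -1.44, and the higher 2 had differences of 2.55 and 1.11. Values are log2(normalized reads + 1), where normalized reads are reads divided by the library's size factor, so a difference understates the change of a gene with few reads. The table holds only transcripts with an absolute log2 difference over 1 and an authors' p-value under 0.05, which fixes that each of these genes differs; the direction, the values in each rabbit and the precision are what can be described. LAG3 lay nearest to the limit on the difference and CXCL10, at an authors' p of 0.042, nearest to the limit on p. Among all 421 listed mRNAs, 242 were higher and 179 (42.5%) lower.

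None of the 7 passed a threshold of 0.05 after adjustment. In the authors' deposited table the FDR (p adjusted over all transcripts tested) was lowest for CCL1, at 0.066, and next lowest for LAG3, at 0.15; the other 5 lay between 0.45 and 0.60. The share of listed mRNAs with an FDR under 0.05 was 11.6%. By limma, with Benjamini-Hochberg adjustment over 17743 transcripts, the adjusted p was 1 for each of the 7. Of 421 listed mRNAs, 0 (0%) passed. The unlisted transcripts, which have no values, were each given the highest possible p. This makes the adjustment strict, so it adds no second check to the authors' FDR. Adjusted over the listed mRNAs alone, the limma p was 0.092 to 0.11 for the 7. At an unadjusted limma p under 0.05 there were 5 of the 7 (CXCL10 and LAG3 were the others), where 45.8% of all listed mRNAs reached it. The arms did not overlap for 4 of the 7, IL12B, IL13, TRAT1 and LAG3, against 53.7% of all listed mRNAs, so neither share sets these genes apart from the rest of the selected table. In reads not divided by size factors LTB joined them, for 5 of 7 against 50.6%. For a single gene, an exact permutation test over 3 rabbits per arm can give no p below 0.1.

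**Figure D1:**
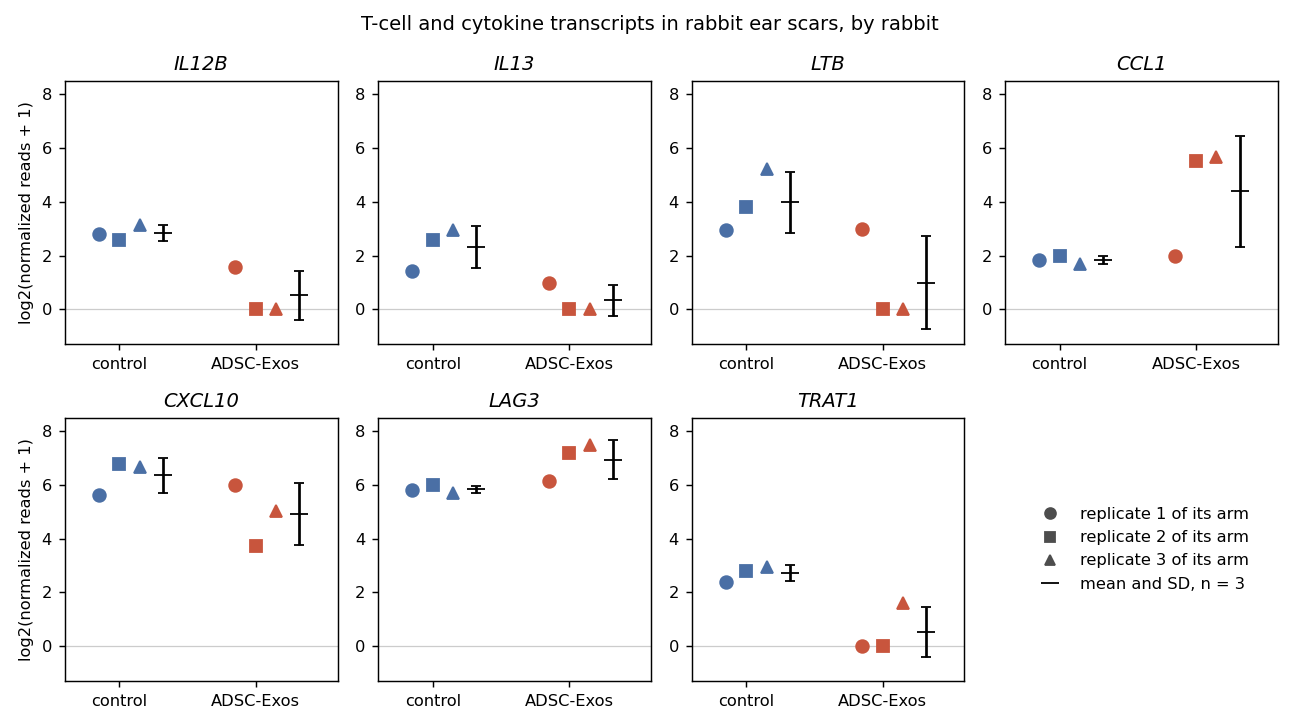
Each point is 1 rabbit, on the log2(normalized reads + 1) scale, with control rabbits in blue and ADSC-Exos rabbits in red; the bar beside each arm is its mean and SD (n = 3). IL12B, IL13 and LTB were at 0 in ADSC-Exos rabbits 2 and 3, and CCL1 in ADSC-Exos rabbit 1 lay at the control level.

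Some of these genes were thinly counted. IL12B, IL13 and TRAT1 averaged under 10 normalized reads even in the higher arm, as did 57 of the 421 listed mRNAs (13.5%). The median listed mRNA had 184 reads over all 6 rabbits, and the median of the 7 genes had 60. Size factors ranged from 0.890 to 1.18, and the listed mRNAs held 86844 to 224554 reads per library; total library depth is not known from selected tables. A count of 0 allows up to 3 reads, which is 1.99, 2.01 and 2.02 on the log2 scale in ADSC-Exos rabbits 1, 2 and 3. Intervals below cover counting error only. Normalized reads are not divided by transcript length, so levels are not compared between genes.

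The cytokine genes come first. IL12B encodes the p40 chain shared by the interleukins IL12 and IL23 and is made mainly by dendritic cells and macrophages. Its transcript (ENSOCUT00000016318) was counted at 7, 5 and 7 reads in control rabbits 1 to 3, and at 2, 0 and 0 in ADSC-Exos rabbits 1 to 3. Every control rabbit was above every ADSC-Exos rabbit, and the ADSC-Exos reads came from rabbit 1 alone. The log2 values were 2.84 ± 0.29 in control and 0.53 ± 0.91 in ADSC-Exos scars (SD, n = 3), a difference of -2.31 (limma SE 0.75, unadjusted p = 0.015). Summed over the arms the reads were 19 and 2, so the control level was 9.19-fold higher, with an exact 95% counting interval from 2.22 to 81.4. Even the lowest control value, 2.58, lay above the 2.02 that a count of 0 allows. The counting error of its own 5 reads is left out of that comparison. With 1 rabbit left out the unadjusted limma p ran from 0.00090, without ADSC-Exos rabbit 1, to 0.051, without ADSC-Exos rabbit 3.

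IL13 is the product of type 2 helper T cells, innate lymphoid cells and mast cells that acts on fibroblasts and macrophages. Reads of its transcript (ENSOCUT00000000154) were 2, 5 and 6 in the control rabbits and 1, 0 and 0 in the ADSC-Exos rabbits. The arms were separated by a single read, between control rabbit 1 and ADSC-Exos rabbit 1. On the log2 scale the controls were at 1.43, 2.58 and 2.95, and control rabbit 1 lay below the level that a count of 0 allows, so its difference from ADSC-Exos rabbits 2 and 3 was not detectable at this depth. The arm means were 2.32 ± 0.80 and 0.33 ± 0.57 (SD, n = 3), a difference of -1.99 (limma SE 0.74, unadjusted p = 0.028). The ratio of control to ADSC-Exos reads, 13 against 1, was 12.6 with a 95% counting interval from 1.89 to 535. The unadjusted p was above 0.05 without control rabbit 2 (0.073) or 3 (0.051) and without ADSC-Exos rabbit 2 (0.075) or 3 (0.083).

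LTB encodes lymphotoxin beta, the membrane anchor of the lymphotoxin heterotrimer, which lymphocytes display and which organises lymphoid structures. Its transcript (ENSOCUT00000006703) had 8, 13 and 32 reads in the controls and 7, 0 and 0 in the ADSC-Exos rabbits. ADSC-Exos rabbit 1, at a log2 value of 2.99, was level with control rabbit 1, at 2.96, and the arms overlapped by that margin. Before division by size factors the same rabbits had 7 and 8 reads and the arms did not overlap. Control rabbit 3 was the highest, at 5.21. The LTB difference was -2.99 (limma SE 1.07, unadjusted p = 0.023), from 3.99 ± 1.14 to 1.00 ± 1.73 (SD, n = 3). In summed reads, 53 against 7, the control level was 7.33-fold higher (95% counting interval 3.32 to 19.1). Without ADSC-Exos rabbit 1 the log2 difference was -3.99, and the unadjusted p was above 0.05 without control rabbit 3 (0.087), ADSC-Exos rabbit 2 (0.077) or ADSC-Exos rabbit 3 (0.071).

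The chemokines went in opposite directions. CCL1, which attracts CCR8-bearing T cells and is made by activated T cells and myeloid cells, had the smallest p-value of the 7 in the authors' deposited table, 0.00061. Its transcript (ENSOCUT00000013412) had 3, 3 and 2 reads in the controls, and 3, 44 and 49 in the treated animals. Rabbit 1 of the ADSC-Exos arm, at a log2 value of 1.99, lay among the controls, which spanned 1.70 to 2.00, while rabbits 2 and 3 were at 5.51 and 5.67. The means were 1.84 ± 0.15 and 4.39 ± 2.08 (SD, n = 3), so the spread of the ADSC-Exos arm came from rabbit 1. The log2 difference of 2.55 (limma SE 1.03, unadjusted p = 0.038) was 3.75 without ADSC-Exos rabbit 1, with an unadjusted p of 0.00024 and an adjusted p of 0.21. Leaving out any other rabbit put the unadjusted p between 0.070 and 0.14. In summed reads, 96 against 8, the ADSC-Exos level was 12.4-fold higher (95% counting interval 6.05 to 29.5). Each control and ADSC-Exos rabbit 1 had no more than the 3 reads that a count of 0 allows. The control level of CCL1 is thus not resolved at this depth.

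CXCL10 is the interferon-induced ligand of CXCR3, a receptor of effector T cells and natural killer cells. Its transcript (ENSOCUT00000016274) had 57, 109 and 89 reads in the controls and 63, 12 and 31 in the ADSC-Exos rabbits. ADSC-Exos rabbit 1 exceeded control rabbit 1 (log2 5.99 against 5.62), so the arms overlapped, and rabbits 2 and 3 lay below every control. The difference of -1.44 (limma SE 0.68, unadjusted p = 0.068) was between means of 6.35 ± 0.64 and 4.91 ± 1.14 (SD, n = 3). It was -0.84 without ADSC-Exos rabbit 2, the lowest of all 6, and -1.98 without ADSC-Exos rabbit 1, where the unadjusted p was 0.018. The ratio of summed reads was 2.33 (95% counting interval 1.85 to 2.95), so counting error is small here beside the differences between rabbits of an arm.

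LAG3 and TRAT1 act at the T-cell surface. LAG3 is a checkpoint receptor of activated T cells and other lymphocytes that binds major histocompatibility class II. It was the best counted of the 7 genes: its transcript (ENSOCUT00000011196) had 66, 62 and 45 reads in the controls and 70, 144 and 176 in the ADSC-Exos rabbits. The controls were close together on the log2 scale, from 5.69 to 5.98, and each ADSC-Exos rabbit was above them, rabbit 1 at 6.14 by a narrow margin and rabbits 2 and 3 at 7.20 and 7.50. Its mean was 56.1 ± 5.71 normalized reads without exosomes and 132 ± 56.3 with them (SD, n = 3). Its log2 difference was 1.11 (limma SE 0.52, unadjusted p = 0.065), and was 1.52 with an unadjusted p of 0.0041 without ADSC-Exos rabbit 1. Among the other alternative settings the unadjusted p went under 0.05 with quantile normalization alone (0.032).

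TRAT1 encodes an adaptor that associates with the T-cell receptor complex and stabilises it at the surface, and of the 7 genes it is the one most restricted to T cells. Reads of its transcript (ENSOCUT00000002916) were 5, 6 and 6 in the controls and 0, 0 and 2 in the ADSC-Exos rabbits. The arms did not overlap, and the ADSC-Exos reads were in rabbit 3, whereas IL12B, IL13 and LTB had theirs in rabbit 1. The means were 2.71 ± 0.29 and 0.53 ± 0.93 (SD, n = 3), a log2 difference of -2.18 (limma SE 0.75, unadjusted p = 0.020). Every control value, from 2.39 up, lay above what a count of 0 allows, with the counting error of the control reads themselves left out. In summed reads, 17 against 2, the control level was 8.23-fold higher (95% counting interval 1.95 to 73.4). The unadjusted p was 0.052 without control rabbit 2 and 0.060 without ADSC-Exos rabbit 2.

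The ADSC-Exos rabbits differed in how far they lay from the control mean. Rabbit 1 was the nearest of its arm for 6 of the 7 genes, TRAT1 being the exception. It was also the nearest for 72.7% of all listed mRNAs, so this is not particular to these genes. That share counts for rabbit 1 the transcripts without reads in any ADSC-Exos rabbit, where the distances tie. Rabbits 2 and 3 were the nearest for 11.9% and 15.4%. For IL12B, IL13 and LTB rabbit 1 was 1.26, 1.33 and 1.00 below the control mean on the log2 scale, and for CCL1, CXCL10 and LAG3 it stood at 0.15, -0.36 and 0.31 from it. The median absolute distance of the 7 genes was 1.00 in rabbit 1, 2.71 in rabbit 2 and 2.32 in rabbit 3. Over all listed mRNAs the medians were 1.03, 2.10 and 2.02. IL12B, IL13 and LTB shared the pattern of reads in all controls and in rabbit 1 with none in rabbits 2 and 3; the wider pattern of reads in at least 1 control and in rabbit 1 with none in the other two was found for 12 listed mRNAs (2.85%). Of the 95 listed mRNAs with at most 60 reads in total, as LTB has, 9 showed it (9.47%). The pattern was noticed in the values of these genes, so the shares are a description. The animal, the scar and the library of rabbit 1 cannot be told apart, and their part in these values was not tested.

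**Figure D2:**
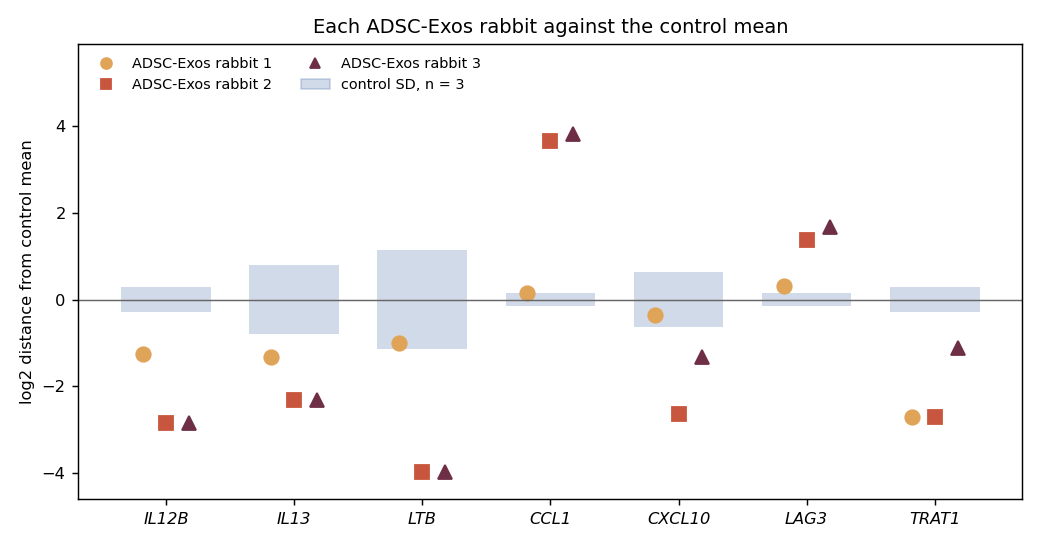
Each point is 1 ADSC-Exos rabbit, plotted as its log2 distance from the control mean (0); the blue band is the SD of the 3 controls. For CCL1 and LAG3 rabbits 2 and 3 were far above the band with rabbit 1 near it, and for TRAT1 rabbits 1 and 2 were the most distant.

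The directions held with each rabbit left out. Without 1 rabbit the log2 difference stayed within -2.84 to -2.05 for IL12B, -2.44 to -1.67 for IL13, -3.99 to -2.38 for LTB and -2.71 to -1.91 for TRAT1. The ranges were 1.91 to 3.75 for CCL1, -1.98 to -0.84 for CXCL10 and 0.84 to 1.52 for LAG3. The table was selected over all 6 rabbits for differences of this size, so that the directions persisted is a description. Of the 7 genes at an unadjusted p under 0.05, there were 5 with all rabbits, 7 without ADSC-Exos rabbit 1, 1 without ADSC-Exos rabbit 2 or 3, 2 without control rabbit 2 or 3, and 4 without control rabbit 1. The listed mRNAs at that threshold went the same way: 193 of 421 with all rabbits, 311 of 420 without ADSC-Exos rabbit 1, 101 and 91 of 419 without ADSC-Exos rabbits 2 and 3, and 141, 94 and 116 without control rabbits 1, 2 and 3.

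**Figure D3:**
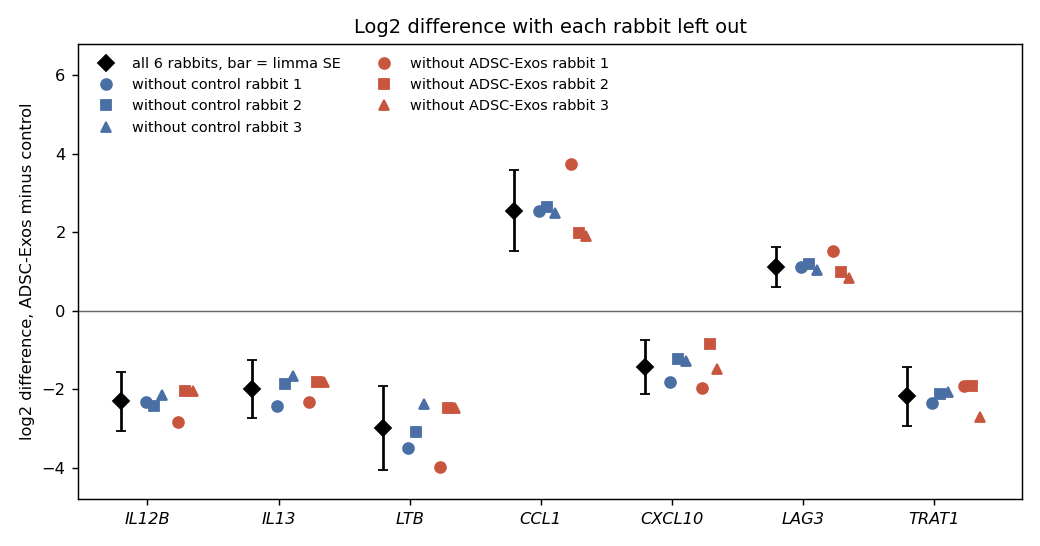
The black diamond is the log2 difference (ADSC-Exos minus control) over all 6 rabbits with its limma SE, and the coloured points leave out 1 rabbit each. Leaving out ADSC-Exos rabbit 1 gave the difference farthest from 0 for each gene but IL13 and TRAT1, and leaving out ADSC-Exos rabbit 2 brought CXCL10 to -0.84.

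Other genes of the same pathways were taken from 10 lists of T-cell, cytokine, chemokine, receptor, interferon-response and type 2 genes, 237 genes in all. Of these, 12 were among the listed mRNAs: the 7 described above and CCR4, CCR1, CCR10, ARG1 and CD96. Without the 7, the other 5 comprised 3 higher and 2 lower transcripts with a median log2 difference of 1.40, beside 1.12 over all 421 listed mRNAs; with the 7 there were 5 higher and 7 lower and the median was -1.68. An FDR under 0.05 in the authors' deposited table was reached by 0 of the 12. At an unadjusted limma p under 0.05 there was 1 of the 5, or 6 of the 12, beside 45.8% of all listed mRNAs. None of the 8 receptor genes of these ligands, such as CXCR3, CCR8 and the receptor chains of IL12 and IL13, was listed, nor were the 17 T-cell signalling genes, so their levels were not analysed here. For the interferon response, CXCL10 was the only one of 33 genes listed.

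CCR4 is a chemokine receptor of type 2 and skin-homing T cells. It had 2, 23 and 31 reads in the controls and 2, 3 and 0 in the ADSC-Exos rabbits. Control rabbit 1 was as low as the ADSC-Exos rabbits, so the arms overlapped. Its difference of -2.53 (limma SE 1.14, unadjusted p = 0.057) was -1.81 without control rabbit 3 and -3.68 without control rabbit 1.

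CD96, a receptor of T cells and natural killer cells, had 47 reads in control rabbit 3 and 0 in each of the other 5 rabbits. The control mean was at least 5.82-fold higher, taken against 3 reads in each ADSC-Exos rabbit, and that bound rests on 1 rabbit. The T-cell surface list thus had 2 of 21 genes listed, CD96 and TRAT1. Their summed normalized reads were 4.22 to 59.6 in controls and 0 to 2.04 in ADSC-Exos scars. The 59.6 was in control rabbit 3 and came mostly from CD96, as TRAT1 alone had 6.74 there. The chains of the T-cell receptor complex and the coreceptors were not among the listed genes, so the label of T cells could not be checked against their defining markers. How far the number of T cells moves with these values was not tested.

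CCR10, a receptor for chemokines of the epidermis, and CCR1, a receptor of monocytes and T cells, were both higher. CCR10 had 13, 1 and 3 reads in the controls and 18, 19 and 13 in the ADSC-Exos rabbits, with no overlap after division by size factors. The CCR10 difference was 1.90 (limma SE 0.78, unadjusted p = 0.042), or 1.28 without control rabbit 2. CCR1 had 7, 13 and 16 reads against 13, 96 and 23, with overlapping arms and a difference of 1.40 (limma SE 0.81, unadjusted p = 0.12) that was 0.59 without ADSC-Exos rabbit 2. ARG1 encodes an arginine-degrading enzyme induced by type 2 cytokines in mouse macrophages and also present in epidermis. It had 16, 1 and 9 reads against 17, 27 and 27, and the arms did not overlap. The ARG1 difference was 1.83 (limma SE 0.82, unadjusted p = 0.057), or 0.94 without control rabbit 2. Within the type 2 list of 23 genes, therefore, IL13 and CCR4 were lower and ARG1 was higher, and the other 20 genes were not listed.

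**Figure D4:**
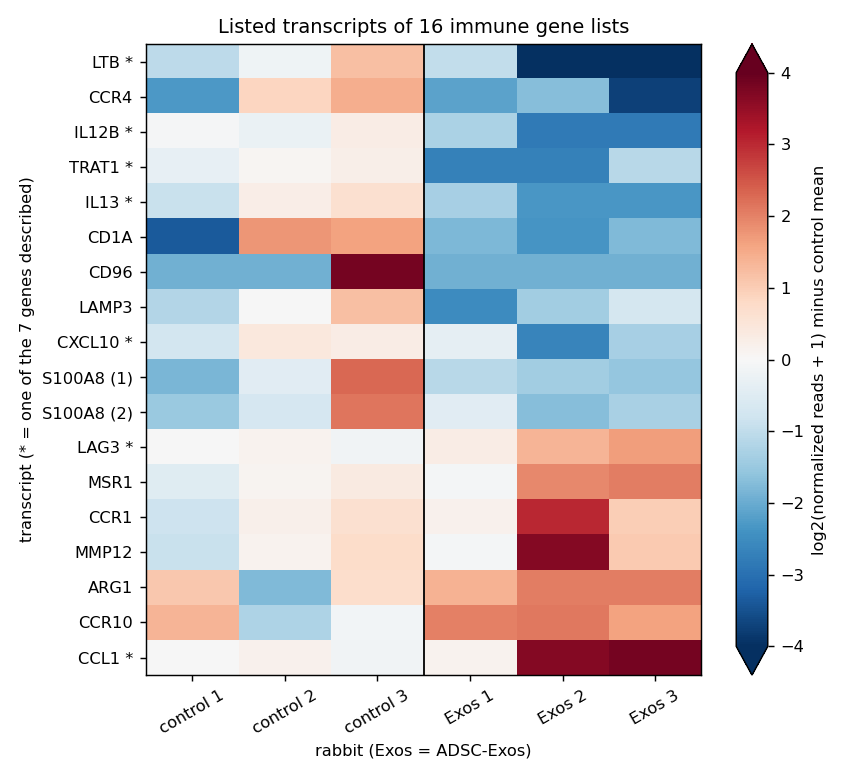
Colour gives each rabbit's log2(normalized reads + 1) minus the control mean of that transcript, for the 18 listed transcripts of 16 immune gene lists, ordered by their difference; an asterisk marks the 7 genes described here. Control rabbits also varied for CCR4, CD1A, CD96 and S100A8, whereas the controls of LAG3, TRAT1, IL12B and CCL1 stayed close to their mean. The rest of the 7 genes, LTB, IL13 and CXCL10, had wider control SDs of 1.14, 0.80 and 0.64.

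In the authors' annotation 8 listed mRNAs carry the KEGG term cytokine-cytokine receptor interaction, 4 of them members of this group: IL12B, IL13, LTB and CXCL10. Those 4 and 2 more, CCR4 and the growth factor gene GDF5, were lower, and CCR1 and IL1R2 were higher. IL1R2, a decoy receptor that binds interleukin 1 without signalling, had 1585, 1982 and 2014 reads in the controls and 1741, 12709 and 6281 in the ADSC-Exos rabbits. Its log2 difference was 1.52 (limma SE 0.77, unadjusted p = 0.083), and ADSC-Exos rabbit 1 lay among the controls, as it did for CCL1; the difference was 2.32 without that rabbit and 0.87 without ADSC-Exos rabbit 2. IL1R2 and GDF5 were named after their values had been seen.

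Markers of other cell types of the scar were also among the listed mRNAs. Of 12 dendritic cell genes 2 were listed, CD1A and LAMP3, both lower, and their normalized reads summed to 14.4 to 108 in controls and 6.96 to 22.4 in ADSC-Exos scars. CD1A, which presents lipids on Langerhans cells, had 0, 34 and 27 reads against 2, 1 and 2, so control rabbit 1 again had the low value; its log2 difference of -1.97 was -3.65, -1.09 and -1.17 without control rabbits 1, 2 and 3. LAMP3, a marker of mature dendritic cells, had 17, 33 and 69 reads against 5, 12 and 20, with overlapping arms and a difference of -1.54, or -0.94 without control rabbit 3. Of 17 macrophage and monocyte genes MSR1 and MMP12 were listed, both higher, with sums of 86.2 to 196 in control and 127 to 986 in ADSC-Exos scars. The arms overlapped for both, and ADSC-Exos rabbit 1 was 0.08 below the control mean on the log2 scale for each. Leaving out ADSC-Exos rabbit 2 took MMP12 from a difference of 1.55 to 0.49, and the MSR1 difference of 1.29 ran from 0.91 to 1.98 with 1 rabbit left out. The neutrophil gene S100A8, 1 of 11 listed, had 2 transcripts that were lower, by differences of -1.15 and -1.34, or -0.08 and -0.19 without control rabbit 3, and their sums were 95.5 to 1543 in control and 115 to 172 in ADSC-Exos scars. The keratinocyte gene TGM5, 1 of 14 listed, was higher by 1.21, or 0.68 without ADSC-Exos rabbit 2, at 1028 to 1623 normalized reads in control and 1271 to 6102 in ADSC-Exos scars. No gene of the natural killer, B cell or mast cell lists was listed. Of 13 erythrocyte genes, HBB2, ALAS2 and CA1 were listed with 4 transcripts, all lower. Their sums were 9701 to 37337 in control and 3633 to 6924 in ADSC-Exos scars. The arms overlapped for none of the 4, beside 53.7% of all listed mRNAs without overlap. The authors' FDR was under 0.05 for HBB2 (0.023) and 1 ALAS2 transcript (0.029), as for 11.6% of listed mRNAs. Without control rabbit 3 the HBB2 difference of -1.71 was -1.14. Of the listed markers, CD96 was at 0 in each ADSC-Exos rabbit and in 2 controls, CD1A in control rabbit 1 and the fibroblast gene CTHRC1 in ADSC-Exos rabbit 1, and the part of these cell types in the values of the 7 genes was not tested. CTHRC1, the 1 listed of 11 fibroblast genes, was counted at 9, 12 and 1 reads in control scars. Exosome-treated scars had 0, 87 and 394. Its arms overlapped, and the treated mean was higher by 2.41 on the log2 scale (limma SE 2.02, unadjusted p = 0.27). Omitting treated animals 1, 2 and 3 in turn changed this to 4.93, 1.70 and 0.61. That 1 gene is too few to check the scar label.

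For each gene the listed mRNAs with the most similar course over the 6 rabbits were found by the root mean square distance between log2 values centred on their own mean, a description with no test. LTB was nearest to an ALAS2 transcript, of the enzyme that starts haem synthesis in red cell precursors, at a distance of 0.30; the median distance of LTB from all other listed mRNAs was 2.57. That transcript had 29, 53 and 81 reads in the controls and 23, 2 and 1 in the ADSC-Exos rabbits, so control rabbit 3 was highest and ADSC-Exos rabbits 2 and 3 lowest for both. IL12B was nearest to SAPCD1 (0.34), LAMA1 (0.35) and RTN1 (0.35), and IL13 to the amino acid transporter gene SLC7A10 (0.26), the cartilage collagen gene COL10A1 (0.30) and SPATA16 (0.37). TRAT1 was nearest to GDF6 (0.19), which had 7, 5 and 7 reads in the controls and 0, 0 and 2 in the ADSC-Exos rabbits.

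CCL1 was nearest to KCNJ1 (0.11), PRPH2 (0.13) and H1FOO (0.20), each with 0 reads in all controls and in ADSC-Exos rabbit 1, and with 9 to 16 reads in rabbits 2 and 3. LAG3 was nearest to PDE6A (0.099), SCRG1 (0.15) and LGALS4 (0.18), and CXCL10 to SLC16A6 (0.32), CDH8 (0.36) and COL10A1 (0.42). None of these nearest genes belonged to the 237 genes of the T-cell and cytokine lists. Among the 7 themselves the closest pair was IL12B and IL13, at 0.49, followed by IL13 and CXCL10, at 0.54, while CCL1 and LAG3 were 1.07 apart.

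All 7 symbols were matched in the RefSeq gene table of the rabbit assembly mOryCun1.1, which was used for gene order only. In that order IL13 lies between RAD50 and IL4, LTB lies beside TNF, CXCL10 lies between CXCL11 and CXCL9, and LAG3 lies between CD4 and PTMS. Of the 42 nearest protein-coding genes, 3 on each side of each gene, 1 was among the listed mRNAs: TMEM132E, next to CCL1. It had 23, 28 and 55 reads in the controls and 12, 0 and 0 in the ADSC-Exos rabbits, the opposite direction to CCL1, and it was the second nearest gene to LTB in its course (0.51). No listed long noncoding RNA was annotated within 3 kb of any of the 7 transcripts, and none of the 1694 listed circular RNAs had one of the 7 as host gene.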

How the data were processed

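RNA sequencing of ear scars from 6 rabbits was analysed from selected tables. STAR 2.7.6a, HTSeq 2.0.3, DESeq2 1.30.1, Trimmomatic 0.40 and FastQC 1.0.0 are named, without roles, per the submitters' processing notes; no genome build is named there. The library protocol in the labels describes adaptors for small RNAs. The deposited values are on a log2 scale: 2 to the value minus 1 gave whole multiples of 1 step (within 0.01) for 100% of values in each library, so reads and size factors were recovered, with a pseudocount of 1. The p-values and FDR are those the authors deposited, and their test is not named. ADSC-Exos and control rabbits were set against each other by limma (version 3.58.1, R 4.3.3), with its trend and robust settings, over all 421 listed mRNAs; the p was adjusted over the 17743 transcripts that the authors' FDR implies (53.4% of ratios of p to FDR give a whole rank within 0.0001), unlisted ones at a p of 1. No count test was run on the recovered reads, as the deposited unit is log2. The script was tested on simulated counts, with adjustment over the listed mRNAs alone. Their base means were above those of IL12B, IL13, LTB, CCL1 and TRAT1. Their spread between animals was a fixed setting, not taken from these data. That test does not cover these genes, the spread seen here or the adjustment over 17743 transcripts. The limma p-values rest on transcripts selected on the same contrast. Ratios of summed reads have exact (Clopper-Pearson) 95% intervals. The 7 genes and the lists were chosen with earlier results of these data known. Genes named are the 7, listed members of 19 gene lists, and the 3 listed mRNAs nearest to each gene over the 6 rabbits. Distances of 100 kb to other transcripts, planned as a search, were replaced by the authors' 3 kb annotation, as the mRNA table gives no coordinates. Alternatives are given in the closing section.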

Additional observations from a re-analysis of the deposited data

How the results depend on the processing

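The limma count of 0 adjusted mRNA calls was 0 under each alternative but 2: with 1 rabbit left out it was 0 to 2 (the 2 without ADSC-Exos rabbit 1), and adjusted over the listed mRNAs alone it was 3, none of the 7 genes. At an unadjusted p under 0.05 the 193 listed mRNAs ranged over 91 to 311 when a rabbit was left out (94 for control 2, 116 for control 3, and 311, 101 and 91 for ADSC-Exos 1, 2 and 3) and 127 with a filter at a mean of 10 normalized reads in the higher arm, which leaves 364. The 5 of the 7 genes at that threshold became 1 to 7 without 1 rabbit, and 2 with the filter, which removes IL12B, IL13 and TRAT1. With the replicate number as a block (replicate block) the count was 3, as IL13 (0.052) and LTB (0.055) went above 0.05. Same-numbered rabbits had correlations of deviations from -0.025 to 0.014, and no rabbit correlated best with its own number. These values show no sign that the numbers pair the animals. With 3 rabbits per arm and selected transcripts they cannot settle it. Of 88 gene values under alternatives, 68 kept their side of the unadjusted threshold, 17 went above it and 3 below it, and 0 changed direction. The pseudocount moved the sparse genes most: with 0.1 and with 10 in place of 1, the log2 difference was -4.50 and -0.61 for IL12B, -4.16 and -0.47 for IL13, -4.35 and -0.55 for TRAT1, -5.16 and -1.13 for LTB, and 2.83 and 1.47 for CCL1. The adjusted p of the 7 genes was 0.092 to 0.11 over the listed mRNAs alone, and in the other settings it ran from 0.21, for CCL1 without ADSC-Exos rabbit 1, to 1. The main fit has no filter, so the planned setting without one is the main value. Depth limits IL12B, IL13 and TRAT1, whose treated arms rest on 1 or 2 reads. It also limits CCL1, whose control rabbits had 2 or 3 reads each.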

Other observations

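Circular RNAs from genes of the 16 immune lists were few. A circular RNA of CD226, a receptor of the same family of ligands as CD96, had 0 reads in the controls and 0, 1 and 2 with exosomes. One of BANK1, a B-cell adaptor, had none in the controls and 1, 0 and 3 in ADSC-Exos animals. One of IL1R1, the signalling receptor of interleukin 1, had 1, 2 and 1 reads in the controls and 0, 1 and 0 in the ADSC-Exos rabbits. These counts lie at or near the 3 reads that a count of 0 allows, and the authors' deposited table gave each an FDR of 0.82.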
